A study of Mus musculus with 5 samples.

Results

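The comparison described here is that of Fos+/+ with Fos-/- spleen cells in osteoclast-forming co-culture, both without virus, read beyond the marker genes of osteoclasts. It rests on 1 array a side, and all genes measured are its subject. Each value is therefore a reading of 1 dish, and no difference below has a replicate error or a test. Members were all non-control probe sets that carry exactly 1 gene symbol, which gave 10833 of the 12488 probe sets on the array and 8251 distinct genes. Intensities under 20 were set to 20, the floor, before the ratio of Fos+/+ over Fos-/- was taken. A probe set was read further only where the brighter of the 2 arrays reached 40, which kept 5808 probe sets of 4985 genes.

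The series holds 5 arrays of mouse co-cultures. In each dish, haematopoietic cells and ST2-T stromal cells grew together until day 6 in medium with dexamethasone, a synthetic glucocorticoid, and with 1,25-dihydroxyvitaminD3, the hormonal form of vitamin D. All 5 dishes received these agents and these stromal cells, and all were harvested whole, so each array reads haematopoietic and stromal RNA mixed. Besides the Fos+/+ and the Fos-/- spleen dish, there was 1 dish of Fos+/+ bone marrow, 1 of Fos-/- spleen cells infected with a deltaNFAT virus and 1 of Fos-/- spleen cells infected with a virus for GFP, the green fluorescent protein. The stromal partner is a cell line and only the haematopoietic cells differ in Fos genotype. The labels give neither the age of the mice nor the number of animals behind a dish, and they do not describe the deltaNFAT construct. In such mixed RNA, fewer cells of a type and less RNA per cell cannot be told apart.

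Fos encodes a subunit of AP-1, a family of paired leucine-zipper transcription factors built from Fos, Jun and related proteins. Osteoclasts and macrophages descend from shared myeloid progenitors. The stromal cells supply the growth factor M-CSF and the cytokine RANKL, and progenitors without Fos are known to stay in the macrophage lineage and form no osteoclasts. Osteoclasts are large cells that fuse from mononuclear precursors, seal onto bone, pump acid onto it and degrade its matrix.

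With the ratio at 2-fold or more, 409 probe sets read higher in Fos+/+ (7.04% of those read) and 385 read lower (6.63%). Per gene, taking the probe set with the highest mean over the 5 arrays, 324 genes were higher (6.5%) and 319 lower (6.4%). The counts of every gene list below are to be read beside these shares of all genes. The 2 directions were thus close in number, but not in size. At 4-fold or more there were 82 probe sets higher and 39 lower, at 8-fold or more 18 and 4, and at 16-fold or more 7 and 0. By brightness, the directions parted only among probe sets whose brighter array read 640 or more, with 7.1% higher and 2.11% lower. In the dimmer classes they were close, with 10.6% and 10.1% at 40 to 80, 7.21% and 7.81% at 80 to 160, 4.33% and 4.56% at 160 to 320, and 4.53% and 4.04% at 320 to 640. In 143 of the higher and 110 of the lower probe sets the dimmer reading did not exceed the floor, and such folds are lower bounds, written "at least". The median log2 ratio of all probe sets read was -0.03, so the middle of the ratios lay near equality. The 2 Fos-/- arrays with virus, deltaNFAT over GFP, gave 207 probe sets higher (3.53%) and 163 lower (2.78%) by the same rule. They differ from each other by a transgene, so they are a yardstick of size and not of technical error.

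**Figure D1:**
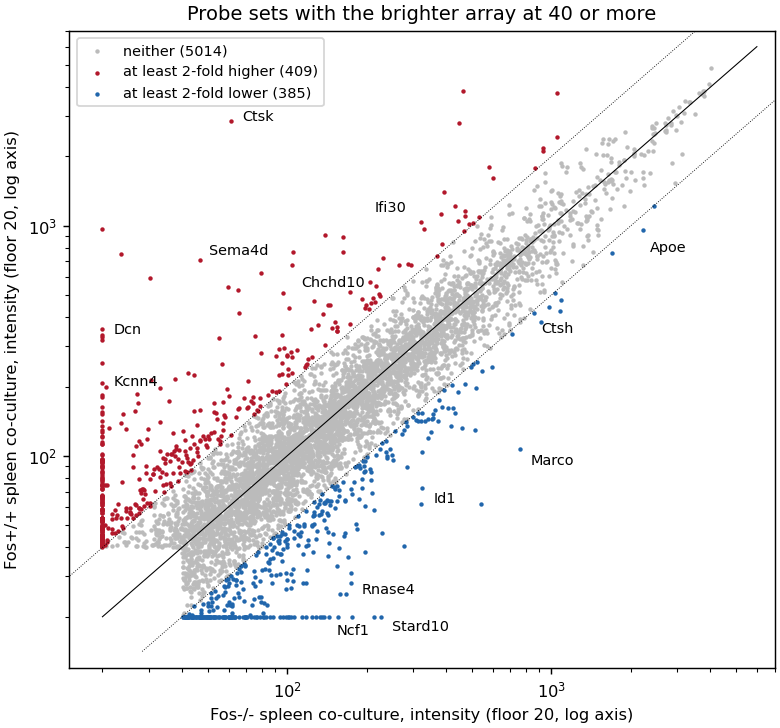
Intensity in the Fos+/+ spleen array (vertical, log scale) against the Fos-/- spleen array (horizontal, log scale), 1 point for each of 5808 probe sets with the brighter array at 40 or more and values under 20 drawn at 20, the solid line marking equality and the dotted lines 2-fold. Red points are the 409 probe sets higher and blue points the 385 lower in Fos+/+, and the points farthest from the line among bright probe sets lie on the red side.

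A second pair of arrays that shares neither dish with the first was set beside it, namely Fos+/+ bone marrow over Fos-/- spleen with GFP virus. It differs from the first in tissue and virus as well as in genotype, so it is no replicate of the first. Of 5470 probe sets read in both pairs, 8.5% were higher and 5.34% lower in the second. Of 309 probe sets higher in the first pair, 126 were higher in the second (40.8% of these and 27.1% of the 465 higher in the second), and 21 were lower. Of 330 lower in the first, 77 were lower again (23.3% of these and 26.4% of the 292 lower in the second), and 41 were higher. The share that recurred was larger in the classes of larger difference on the higher side. It was 31.5% for probe sets 2-fold to 3-fold higher, 66.7% for 4-fold to 8-fold, and 77.8% (14 of 18) at 8-fold or more, where 0 were opposite. For lower probe sets it was 18.5% at 2-fold to 3-fold and 58.1% at 4-fold to 8-fold, and 1 of the 3 at 8-fold or more recurred. Dim probe sets on the lower side did not keep their direction, since of 107 reading 40 to 80, 24 were lower again and 29 were higher. Per gene, 103 of 251 higher genes were higher in both pairs and 63 of 277 lower genes lower in both, where 7.87% and 5.23% of all 4725 genes read in both pairs were higher and lower in the second. These genes are called recurring below.

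**Figure D2:**
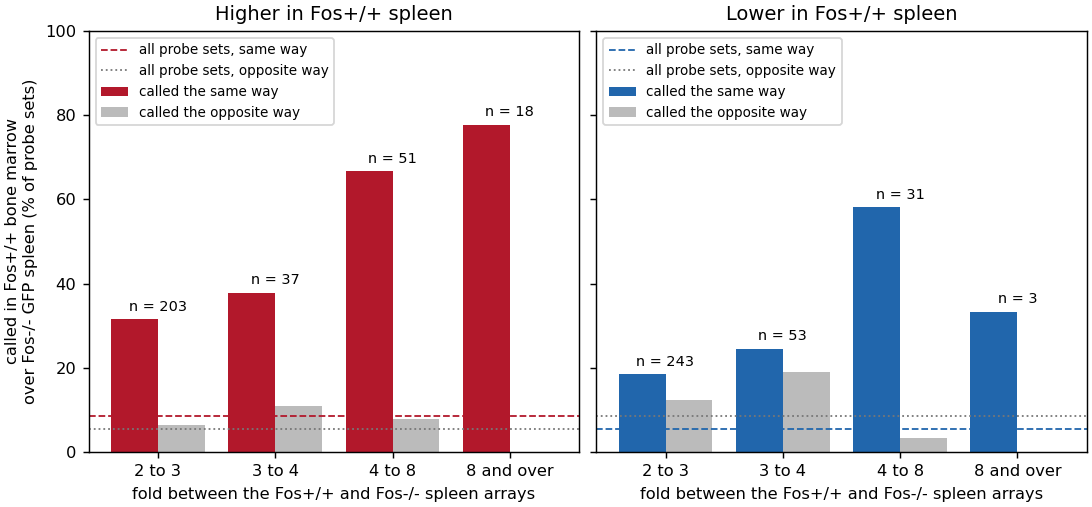
Share of the probe sets higher (left, red) or lower (right, blue) in Fos+/+ spleen that passed 2-fold the same way (coloured bars) or the opposite way (grey bars) in Fos+/+ bone marrow over Fos-/- GFP-virus spleen, in percent, by the fold in the spleen arrays, with n the probe sets in each class and lines for the shares of all 5470 probe sets (8.5% and 5.34%). The coloured bars on the left rise from 31.5% at 2-fold to 3-fold to 77.8% at 8-fold or more, and the last bar on the right stands on 3 probe sets.

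Probe sets of 1 gene gave a check within the arrays, although they share the RNA and are not replicates. Of 712 genes with 2 or more probe sets bright enough, 15 had every such probe set higher and 10 had every one lower. In 132 genes some probe sets passed 2-fold and others did not. Only Erdr1 and Man2b1 had probe sets past 2-fold in opposite directions. Itgav, the alpha-v integrin subunit, read 678, 365 and 53.9 with its 3 probe sets in Fos+/+ and 264, 154 and 19.3 in Fos-/-. Vcam1, the vascular cell adhesion molecule, gave 428, 196 and 203 in Fos+/+ and 1080, 520 and 422 in Fos-/-, the opposite direction with all 3. Plk1, a mitotic kinase, was higher with all 3 and Npr3, the natriuretic peptide clearance receptor, lower with all 3. The genes with every probe set higher also included Atp6v1b2, Blnk, Capg, Col18a1, Lpl, Mmp9, Mvp, Pstpip1 and Rfc5.

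The labels were checked first against Fos itself. Its brighter probe set read 848 in Fos+/+ and 426 in Fos-/- spleen, 614 in Fos+/+ bone marrow, and 581 and 607 in the Fos-/- dishes with deltaNFAT and GFP virus. The Fos-/- dishes thus read in the same range as Fos+/+ bone marrow. Its other probe set lay under the floor in every array. ST2-T cells bring their own Fos gene to every dish, so these values do not check the genotype. None of the 9 AP-1 subunits read passed 2-fold with the probe set taken for the gene. Their median log2 ratio was 0.04, which became 0.51 at a floor of 40. Fos itself lay just inside the limit, and Atf3 had 2 bright probe sets, of which the one not taken for the gene was higher. The osteoclast markers did separate the dishes. Of 12 read, 11 were higher in Fos+/+ and all 11 recurred, with a median log2 ratio of 2.88. Stromal RNA was present on both sides, since Col1a1, the main collagen chain, read 3860 and 3778. Csf1r, the M-CSF receptor of the macrophage lineage, read 1510 and 1469, so RNA of that lineage was present on both sides. Genes that define T cells and eosinophils were mostly dim or under the floor, while neutrophil genes were present, as described further on. Of 24 genes of B cells and plasma cells on the array, 14 reached 40, with a summed intensity over the list of 2353 and 2401. Cd3e and Cd3g of T cells lay under the floor in both spleen arrays, none of 6 eosinophil genes reached 40, and Cd79b of B cells read 116 and 108. Of 7 T and NK cell genes read, however, 1 was higher and 3 were lower. Cd4 had a log2 ratio of -2.74, and Zap70 one of -2.66 that became 0.084 when probe sets with a suffix were left out.

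Several genes with large ratios encode membrane proteins. Sema4d, a membrane semaphorin that signals through plexin receptors, read 707 in Fos+/+ against 46.8 in Fos-/- spleen (15.1-fold). It read 309 in Fos+/+ bone marrow, 178 with deltaNFAT virus and 87.0 with GFP virus, so both Fos+/+ arrays lay above all 3 Fos-/- arrays. Plxnd1, a plexin, read 768 against 163 (4.71-fold), but it did not recur, reading 339 in bone marrow and 283 with GFP virus. Cd200, a glycoprotein that signals to myeloid cells, read 214 against 30.6 (7.0-fold) and recurred. Gpr137b, a lysosomal membrane protein, read 593 against 30.3 (19.6-fold), and it read 295 in bone marrow against 44.5 and 7.5 with the viruses. Its pseudogene Gpr137b-ps read 773 against 105, and the 2 sequences may share probes. Of 19 semaphorins, ephrins and guidance receptors read, 3 were higher and 2 lower, and the median was 0.02 beside -0.03 for all genes.

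Among growth factor and cytokine receptors, 6 of 30 were higher and 3 lower, and 5 of the 6 recurred. Igf2r, which binds IGF-II and carries mannose-6-phosphate-tagged enzymes to lysosomes, read 170 against 27.3 (6.23-fold), with 152 in bone marrow, 45.8 with deltaNFAT and a value under the floor with GFP. Mst1r, the receptor kinase for macrophage-stimulating protein, read 139 against 23.5 (5.92-fold). Tgfbr3, the TGF-beta co-receptor, read 113 against 9.4, at least 5.64-fold, and Tgfbr1, a signalling receptor for TGF-beta, 67.8 against a value under the floor, at least 3.39-fold. For all of these the Fos+/+ spleen and bone marrow arrays lay above each Fos-/- array. The interferon-gamma receptor chains went apart. Ifngr2 read 183 against 84.4 (2.17-fold higher) and Ifngr1 read 71.0 against 157 (2.22-fold lower), and neither passed 2-fold in the second pair. Lifr, the receptor for leukaemia inhibitory factor, was lower with all 3 of its probe sets that were read, its representative giving 46.0 against 95.6. Of the growth factors, Hbegf, a ligand of the EGF receptor, read 198 against 33.0 (6.00-fold), and Pdgfb read 122 against 47.9 (2.54-fold), and both recurred.

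Of 23 immunoreceptor signalling genes read, 5 were higher, 2 lower and 16 neither, with a median of 0.25. Blnk, an adaptor first known from B cells, read 152 against 24 (6.33-fold) and recurred with 72.9 in bone marrow against 19.3 and 24.5 with the viruses. Lat2 read 172 against 57.0 (3.02-fold), Lcp2, also called SLP-76, 225 against 92.9 (2.42-fold), and Plcg2, the phospholipase itself, 45.3 against 17, at least 2.27-fold. Those 3 did not pass 2-fold in the second pair. Pstpip1, an adaptor that binds the cytoskeleton and phosphatases, read 528 against 64.9 (8.13-fold) and 206 in bone marrow against 88.0 and 44.4. The lower ones were the kinase Fyn and the adaptor Gab1. Of the 14 genes on the list of B cells and plasma cells, Blnk alone was higher. Cd72, a B-cell surface protein that is not on that list, read 131 against 29.7 (4.40-fold) and 43.7 in bone marrow against 75.3 and 40, so it did not recur. Traf1, an adaptor of TNF receptors, read 156 against a value under the floor, at least 7.79-fold, and 52.9 in bone marrow against values under the floor with both viruses.

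Proximal promoters were read for letters that AP-1 prefers, TGANTCA, on both strands. RefSeq promoters (assembly GRCm38.p6) were found for 6576 of the 8251 genes and span 250 bases before to 50 after the start. The letters occurred in 7.81% of all promoters of this length, in 7.02% of the genes read, in 6.2% of the higher genes (16 of 258) and in 7.56% of the lower ones (18 of 238). Both shares lay near that of the genes read. Sema4d and Snx10, both recurring, were among the 16, and the 250 bases before their starts show how differently the match sits, far upstream in the first and in G-and-C-rich sequence nearer the start in the second. The capitals mark the match, which begins 239 bases before the start of Sema4d (chr13:51748811-51749060, minus strand) and 98 bases before that of Snx10 (chr6:51523834-51524083, plus strand). A match is a run of letters and not a measured binding site.
Sema4d: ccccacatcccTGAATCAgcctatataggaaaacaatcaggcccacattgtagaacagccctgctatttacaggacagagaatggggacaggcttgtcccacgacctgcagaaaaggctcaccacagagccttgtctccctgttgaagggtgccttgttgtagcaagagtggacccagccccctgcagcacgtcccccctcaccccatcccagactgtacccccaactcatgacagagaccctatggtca
Snx10: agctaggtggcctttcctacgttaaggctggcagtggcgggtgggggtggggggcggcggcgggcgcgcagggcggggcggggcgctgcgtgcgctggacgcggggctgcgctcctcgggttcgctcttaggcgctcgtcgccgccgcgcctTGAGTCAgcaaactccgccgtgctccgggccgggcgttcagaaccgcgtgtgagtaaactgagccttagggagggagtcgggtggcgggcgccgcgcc

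Of 22 channels, pumps and calcium genes read, 3 were higher and 1 lower, with a median of -0.03. Kcnn4, a calcium-activated potassium channel, read 208 in Fos+/+ and 17.3 in Fos-/- spleen, at least 10.4-fold, and 117 in bone marrow against 27.6 and 38.9 with the viruses. Slc4a2, which exchanges chloride for bicarbonate, read 441 against 101 (4.35-fold) and recurred. Atp1b3, a beta subunit of the sodium pump, read 1606 against 602 (2.67-fold) and did not recur, with 1868 in bone marrow and 1018 with GFP virus. Slc8a1, a sodium-calcium exchanger, was lower, at 4.8 against 45.8. The remaining 18 lay within 2-fold.

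The V-ATPase, the proton pump of lysosomes and of the osteoclast's ruffled border, stood on the higher side with 7 of 15 subunits read and 0 lower, at a median log2 ratio of 0.89. Tcirg1, the membrane subunit known from osteoclasts, had the largest ratio at 914 against 140 (6.55-fold). Subunits of the general cytosolic domain followed at smaller folds, with Atp6v1d at 451 against 142 (3.17-fold), Atp6v1b2 at 1805 against 579 (3.12-fold) and Atp6v1a at 1161 against 471 (2.47-fold). Atp6v1b2 read 1344 in bone marrow and 775 with GFP virus, which is short of 2-fold. Only Tcirg1 passed 2-fold in the second pair, where the list's median was 0.48. Lysosomal hydrolases did not lean the same way. Of 38 such genes read, 1 was higher and 2 lower, and the median was -0.00. Ctsh, an aminopeptidase of lysosomes, read 419 against 863 (2.06-fold lower) and recurred.

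Of 45 genes of vesicle traffic read, 1 was higher, 2 were lower and the median was -0.16. The higher one was Snx10, a sorting nexin needed by osteoclasts, at 330 against 75.5 (4.37-fold), with 373 in bone marrow against 186 and 159 with the viruses. Ap1b1, a subunit of the clathrin adaptor of the Golgi, read 132 against 460 (3.49-fold lower), and Snx2 read 194 against 391 (2.01-fold lower). The other bright probe set of Ap1b1 did not share this direction, and the call of Ap1b1 was lost with the mean of its probe sets. Of 57 genes of actin and podosomes, the adhesion structures of osteoclasts, 7 were higher and 3 lower with a median of 0.02. Rac2, a GTPase of blood cells, read 1398 against 393 (3.56-fold), Capg, which caps actin filaments, 1213 against 432 (2.81-fold), and the unconventional myosin Myo1d 228 against 42.3 (5.40-fold). Of these only Myo1d recurred. Add1, which links spectrin to actin, was lower at 61.5 against 321 (5.23-fold) and lower again in the second pair.

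Genes of cell division were higher in Fos+/+ across many members. Of 41 cell cycle and mitosis genes read, 14 were higher and 2 lower, where 6.5% and 6.4% of all genes were, with a median of 0.31. All 14 were higher in the second pair as well. There 19 of 41 were higher and 3 lower, beside 9.18% and 5.95% of all genes read in that pair, and the median was 0.83. Ccnb2, a mitotic cyclin, read 359 against 147 (2.44-fold), with 326 in bone marrow, 156 with deltaNFAT and 115 with GFP. Cdk1, its kinase, read 127 against 52.8 (2.41-fold), with 108 in bone marrow against 51.4 and 35.8. Both Fos+/+ arrays lay above all 3 Fos-/- arrays for both genes. Kif22, a chromosome-moving kinesin, had the largest ratio at 216 against 37.8 (5.71-fold). Stmn1, which destabilises microtubules, read 281 against 79.7 (3.52-fold), Birc5, a mitotic regulator also called survivin, 158 against 46.7 (3.38-fold), and Cdc20, an activator of the anaphase-promoting complex, 212 against 71.3 (2.98-fold). Aurka, Cdca8, Ccna2, Mad2l1, Plk1, Kif20a, Cdc6 and Cdkn2d made up the rest, with Cdkn2d an inhibitor rather than a driver of the cycle. The 2 lower ones were the D cyclins Ccnd2 and Ccnd3, which act in the first gap phase, at 24.1 against 53.6 and 34.7 against 85.0. Ccnd2 lost its call under 4 of the 8 alternative settings and Ccnd3 under 2. On the higher side Kif20a lost its call under 4, and Cdc6, Mad2l1 and Plk1 under 3 each. Most of the genes called are dim, and of the 14 only Ccnb2, Stmn1, Kif22 and Cdc20 reached 160 in Fos+/+ spleen. Among the 14, only these 4 lost their call under no setting.

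DNA replication, histone and nucleotide genes gave 12 of 29 higher and 0 lower, with a median of 0.76 and with 28 of the 29 above a log2 ratio of 0. In the second pair the median was 0.94, and 7 of the 12 recurred. Mcm7, a subunit of the replicative helicase, read 118 against 50.6 (2.34-fold), with 92.9 in bone marrow against 34.8 and 42.7. Rrm2, the regulated subunit of ribonucleotide reductase, read 84.2 against 37.1 (2.27-fold). Fen1, which trims Okazaki fragments, read 164 against 79.2 (2.07-fold), and Uhrf1, which guides maintenance of DNA methylation, 94.7 against a value under the floor, at least 4.74-fold. Dnmt3a, a methyltransferase that sets new DNA methylation, had the largest fold of the list, at 185 against 27.0 (6.87-fold) and 143 in bone marrow against 55.5 and 60.3. Rad54l, of homologous recombination, read 224 against 44.6 (5.02-fold) but 98.4 with GFP virus, and did not recur. The deltaNFAT array had no constant place among the Fos-/- arrays, reading above GFP for Rrm2 (42.3 against 24.2) and below it for Mcm7 and Dnmt3a.

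The E2F factors drive replication genes, and their preferred letters TTTNNCGC, read on both strands, occurred in 5.17% of all promoters and in 10.2% of those of the genes read. Of the 12 higher replication genes, 4 held them (33.3%), namely Mcm7, Lig1, Uhrf1 and Dnmt1. All 27 replication genes read that have a promoter gave 25.9%, a share that includes these 12. For the whole set of higher genes it was 8.91%, and for lower genes 8.4%. Cdk1 is on the cell cycle list and not on the replication list. Of 11 higher cell cycle genes with a promoter 2 held the letters (18.2%), near the 17.6% (6 of 34) of all cell cycle genes read. AP-1 letters occurred in 0 of the 27 and in 0 of 34 cell cycle promoters. The 250 bases before Mcm7 (chr5:138171884-138172133, minus strand, match beginning 165 bases before the start) and Cdk1 (chr10:69352913-69353162, minus strand, 2 matches, the first beginning 131 bases before the start) are shown with the matches in capitals, that of Mcm7 lying on the opposite strand.
Mcm7: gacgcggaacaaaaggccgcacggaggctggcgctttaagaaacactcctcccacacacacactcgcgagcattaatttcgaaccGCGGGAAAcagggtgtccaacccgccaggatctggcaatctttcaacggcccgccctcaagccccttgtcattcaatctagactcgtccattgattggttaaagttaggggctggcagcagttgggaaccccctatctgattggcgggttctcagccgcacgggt
Cdk1: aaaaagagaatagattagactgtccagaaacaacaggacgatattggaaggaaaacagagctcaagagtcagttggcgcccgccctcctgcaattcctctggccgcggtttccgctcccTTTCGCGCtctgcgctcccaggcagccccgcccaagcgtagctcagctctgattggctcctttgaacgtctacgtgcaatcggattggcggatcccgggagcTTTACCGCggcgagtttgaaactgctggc

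Mitochondrial genes leaned to the Fos+/+ side by small amounts. Over 45 genes of oxidative phosphorylation the median was 0.41, but only 3 were higher and 1 lower, and in the second pair the median was 0.11. The share higher was near the 6.5% of all genes, so the lean lay in the median and not in the calls. Of 32 genes of the citric acid cycle and of mitochondrial carriers, 5 were higher and 1 lower with a median of 0.25. Sdhb, the iron-sulphur subunit of succinate dehydrogenase, read 1045 against 444 (2.36-fold), Pdhb, of pyruvate dehydrogenase, 462 against 208 (2.21-fold), and Dlst, of the oxoglutarate dehydrogenase complex, 349 against 155 (2.26-fold). Of the 5, Dlst and the carrier Slc25a10 recurred. The lower one was Slc25a3, the phosphate carrier, at 18.1 against 155, at least 7.78-fold. It read 130 to 174 in the other 3 arrays, so the Fos+/+ spleen reading stood alone. Chchd10, a protein of the intermembrane space that belongs to no list used here, read 672 against 104 (6.44-fold) and 166 in bone marrow against 89.8 and 33.6. Ppif, the mitochondrial cyclophilin, read 127 against 12.5, at least 6.37-fold, and 36.7 in bone marrow. Glycolysis gave 0 higher and 1 lower of 17, the lower one being the hexokinase Hk2 at 47.0 against 130 (2.76-fold).

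Of 29 genes of lipid uptake, transport and oxidation read, 5 were higher and 6 lower, with a median of 0.13. On the higher side were Lpl, the lipoprotein lipase, at 470 against 126 (3.71-fold), Fabp5 at 290 against 109 (2.65-fold), Fabp4 at 94.7 against 36.1 (2.62-fold), and the phospholipid transfer protein Pltp at 674 against 293 (2.30-fold). On the lower side, Apoe read 958 against 2219 (2.32-fold lower), Apoc1 45.8 against 149 (3.26-fold), Apoc2 18.5 against 76.4, at least 3.82-fold, and Scarb1, the receptor for high-density lipoprotein, 474 against 1086 (2.29-fold). The cholesterol exporters Abca1, at 85.3 against 77.9, and Abcg1, at 211 against 156, lay within 2-fold. Lpl, Fabp4 and Pltp recurred on the higher side, and Apoe, Apoc1 and the transporter Abcc3 on the lower. Lpl and Apoe also varied among the Fos-/- arrays. Lpl read 1207 in bone marrow, and 783 and 570 with deltaNFAT and GFP virus, both above the 470 of Fos+/+ spleen. Apoe read 1964 in bone marrow against 3999 and 4774 with the viruses, and 2219 in Fos-/- spleen without virus. Stard10, a lipid transfer protein, read 227 in Fos-/- spleen and under the floor in all 4 other arrays, at least 11.4-fold lower in Fos+/+.

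**Figure D3:**
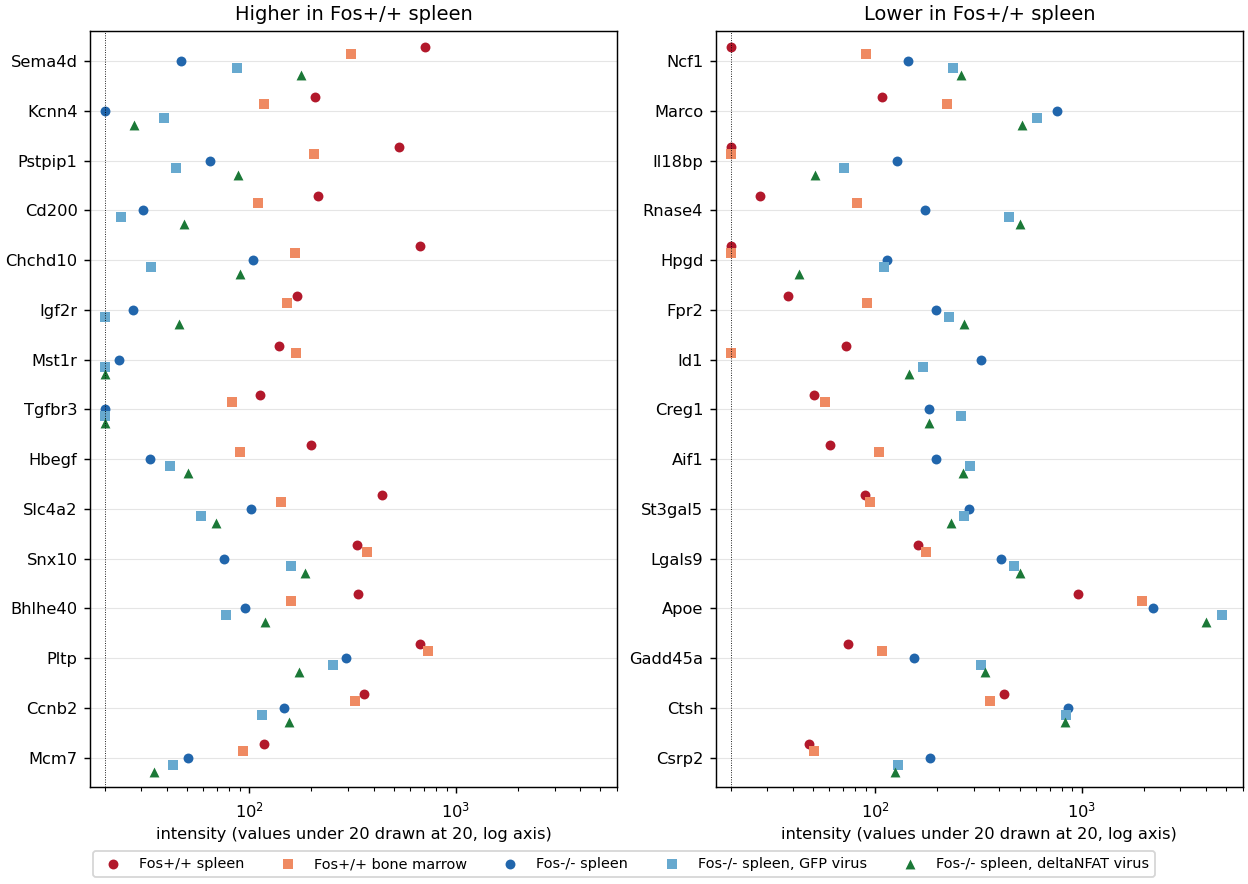
Intensity (horizontal, log scale, values under 20 drawn at 20) in each of the 5 arrays of 15 genes higher (left) and 15 lower (right) in Fos+/+ spleen, chosen among those that recurred, 1 point an array and the dotted line at the floor. Both Fos+/+ arrays (red and orange) lie above all 3 Fos-/- arrays (blue and green) for genes such as Sema4d, Kcnn4 and Igf2r, and below them for Marco and Creg1.

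The immunoproteasome differed without the interferon genes it is usually induced with. Its catalytic subunits Psmb10, Psmb8 and Psmb9 read 453 against 145 (3.12-fold), 348 against 155 (2.25-fold) and 53.2 against a value under the floor, at least 2.66-fold. Ube2l6, an enzyme that attaches the interferon-induced modifier ISG15, read 90.3 against 29.3 (3.08-fold). Yet of 12 genes of the interferon response read, 0 were higher and 0 lower, with a median of 0.03. Irf1, which interferon induces, read 280 and 228. None of Psmb8, Psmb9, Psmb10 and Ube2l6 was higher in the second pair. There Psmb9 was lower, and of 22 interferon genes read 0 were higher and 10 lower, where all 5240 genes read in that pair gave 9.18% higher and 5.95% lower. The summed intensity of the interferon list was 4542 in Fos+/+ spleen, 4363 in Fos-/- spleen and 4330 in bone marrow. With deltaNFAT and GFP virus it was 8410 and 7373. The second pair differs in virus as well as genotype, and their parts in the 10 lower genes were not tested. Ifi30, a thiol reductase of antigen processing named here after its values were seen, did recur, at 1034 against 322 (3.21-fold) and 618 in bone marrow against 328 and 270. Class I genes, counted with the immunoproteasome, gave 3 higher and 1 lower of 12, and class II and dendritic cell genes 0 higher and 2 lower of 11.

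Transcription factors of the myeloid lineage went both ways, with 5 of 40 higher, 8 lower and a median of -0.27. On the higher side, Bhlhe40, a repressor of the helix-loop-helix family, read 337 against 95.7 (3.52-fold), Mycl, a relative of Myc, 84.9 against 12, at least 4.25-fold, Prdm1, a repressor also called Blimp1, 57.4 against 9.2, at least 2.87-fold, and Spi1, also called PU.1, 1024 against 505 (2.03-fold). Bhlhe40 and Mycl recurred. Prdm1 read 37.1 in bone marrow against values under the floor with both viruses, under the brightness asked for. On the lower side were Irf8 at 104 against 236 (2.26-fold) and Klf4 at 64.5 against 165 (2.56-fold), which act in monocytes and dendritic cells, and Irf5 at 140 against 282 (2.02-fold). The calls of Irf5 and Spi1 sit at the limit, since both were lost under quantile normalization and with a pseudocount of 20, and that of Irf5 also with the lowess trend removed. Id1, an inhibitor of helix-loop-helix factors, read 72.4 against 325 (4.49-fold lower), with a value under the floor in bone marrow and 147 and 172 with the viruses, so it recurred. Tef, a clock-controlled factor, read 46.4 against 229 (4.94-fold lower), but 120 in bone marrow lay between 99.7 and 133 with the viruses.

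Of 22 macrophage genes read, 5 were lower, 1 higher and the median was -0.49, while in the second pair it was -0.32. Most members, 16 of the 22, lay within 2-fold. Their summed intensity was 17365 in Fos+/+ and 21672 in Fos-/-. Marco, a scavenger receptor for bacteria and particles, read 108 against 761 (7.08-fold lower), with 223 in bone marrow against 516 and 609 with the viruses. Aif1, an actin-binding protein of macrophages, read 60.6 against 196 (3.24-fold lower) and Mertk, which takes up dying cells, 55.0 against 126 (2.28-fold lower), and both recurred. Mertk read 135 in bone marrow against 266 and 286 with the viruses, so bone marrow lay above Fos-/- spleen without virus. Mrc1, the mannose receptor, was lower here at 58.1 against 214 (3.69-fold), but read 596 in bone marrow, above both spleen arrays without virus. C1qa of complement read 1218 against 2448 (2.01-fold lower) and just missed 2-fold in the second pair, at 1356 against 2507. Adgre1, the F4/80 antigen, read 327 against 643, a ratio of 1.96, just inside the limit. The macrophage genes thus went both ways, with 7 above a log2 ratio of 0 and 15 below. They ran from a log2 ratio of 1.02 for Spi1, the 1 higher gene, through near equal for Csf1r, to 7.08-fold lower for Marco.

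Single genes of other lists also had large ratios. Ncf1, an organiser of the phagocyte oxidase, read 17.6 against 144, at least 7.20-fold lower, with 90.2 in bone marrow against 261 and 237. Another subunit of the same oxidase, Ncf4, was higher at 375 against 173 (2.17-fold). Fpr2, a formyl peptide receptor, read 38.1 against 198 (5.19-fold lower), and Rnase4, a secreted ribonuclease, 27.9 against 174 (6.25-fold lower), with 81.9 in bone marrow against 500 and 442. Il18bp, a decoy for interleukin 18, read 18.6 against 128, at least 6.41-fold lower, and Il18 itself a value under the floor against 53.5, at least 2.67-fold lower. Lgals9, a galectin, read 162 against 408 (2.51-fold lower). All of these apart from Ncf4 recurred. Enzymes of prostaglandin E2 went apart, with the synthase Ptges at 156 against 44.5 (3.51-fold higher) and Hpgd, which inactivates the prostaglandin, at 13.8 against 114, at least 5.71-fold lower, and both recurred.

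Of 14 neutrophil granule genes read, 6 were lower in Fos+/+ spleen and 2 higher, with a median of -0.97. Their summed intensity ran the other way, at 7938 in Fos+/+ and 7206 in Fos-/-. Mmp9, a protease that is also on the osteoclast list, made up 3759 and 1046 of these sums. Ngp, a granule protein, read 61.5 against 540 (8.79-fold lower) and S100a9, a calcium-binding protein abundant in neutrophils, 134 against 416 (3.10-fold lower). Neither recurred. Ngp read 1835 in bone marrow and 701 and 1165 with the viruses, and S100a9 read 1791, 1078 and 1524, so Fos+/+ spleen was the array that read low. In the second pair the median of the list was 0.70. Chemokines split too. Ccl9, a macrophage and osteoclast chemokine, read 2171 against 927 (2.34-fold higher), while Ccl6, its neighbour in the genome, read 31.1 against 98.9 (3.18-fold lower).

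Stromal genes lay slightly below equality. Of 30 matrix and fibroblast genes read, 2 were higher, 3 lower, 23 had a ratio below 0 on the log2 scale and the median was -0.27. Their summed intensity was 18822 in Fos+/+ and 20937 in Fos-/-. The stromal sum was thus larger on the Fos-/- side, and its part in the lower calls was not tested. Col8a1, a short-chain collagen, read 107 against 226 (2.11-fold lower) and recurred. Of 11 endothelial and smooth muscle genes read, 3 were lower and 0 higher, none of the 3 recurred, and the median of -0.38 became -0.009 when probe sets with a suffix were left out. Of 7 muscle genes, 3 were lower and 0 higher. Tagln, an actin-binding protein of smooth muscle, read 758 against 1690 (2.23-fold lower) and Cnn1, calponin, 163 against 386 (2.36-fold lower). Against this lean stood Dcn, a small matrix proteoglycan, at 320 in Fos+/+ and 14.1 in Fos-/-, at least 16-fold higher. It read 320 in bone marrow and 24.9 and 11.3 with the viruses, while Col1a1 varied only from 3416 to 4186 over the same 5 arrays. Igfbp4, which binds insulin-like growth factors, was lower at 130 against 514 (3.97-fold) and read 187 in bone marrow against 257 and 319. The other bright probe set of Igfbp4 lay on the same side but within 2-fold, and the call was lost when probe sets with a suffix were left out.

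**Figure D4:**
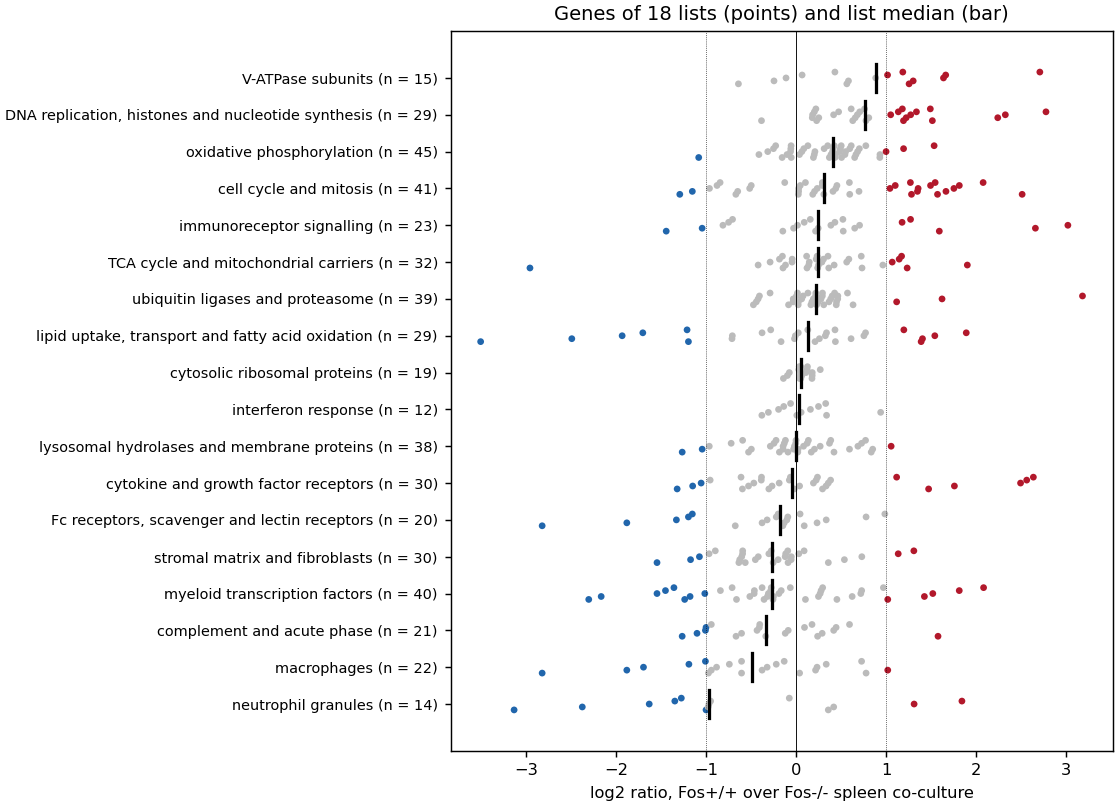
Log2 ratio of Fos+/+ over Fos-/- spleen (horizontal) for the genes read of 18 lists, 1 point a gene, red at 2-fold or more higher, blue at 2-fold or more lower, grey between, with a black bar at the list median and n the genes read. Of the lists drawn, the V-ATPase (median 0.89) and replication genes (0.76) stand farthest to the right, macrophage (-0.49) and neutrophil genes (-0.97) farthest to the left, and ribosomal and interferon genes have only grey points. Lists not drawn include osteoclast markers (2.88), mast cells and basophils (-0.57) and T and NK cells (-0.56).

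The remaining lists are given by their counts, to be read beside the 6.5% of all genes that were higher and the 6.4% that were lower. Among lists of other blood cells, T and NK cell genes gave 1 higher and 3 lower of 7, mast cell and basophil genes 1 and 2 of 5, erythroid genes 1 and 1 of 7, B cell genes 1 and 0 of 14 and megakaryocyte genes 0 of 1. These are small numbers of mostly dim genes. Cd4, a co-receptor of T cells also made by some macrophages, read 25.0 against 167 (6.69-fold lower) and 129 in bone marrow against 91.0 and 134. Fc, scavenger and lectin receptors gave 0 higher and 5 lower of 20, complement and acute phase genes 1 and 4 of 21, cytokines 2 and 4 of 24, and chemokines with their receptors 3 and 1 of 11. Of the intracellular signalling list of NF-kB, MAP kinases and calcineurin, 3 of 24 were higher and 0 lower. Integrins gave 3 higher and 1 lower of 15, tetraspanins and fusion proteins 2 and 2 of 17, and G-protein-coupled receptors with their regulators 2 and 2 of 24. Matrix and bone lists gave 3 higher and 1 lower of 12 proteoglycan genes, 1 and 1 of 11 matrix proteases, 0 and 3 of 14 protease inhibitors, 0 and 1 of 10 osteoblast genes, 2 and 1 of 12 adipocyte genes and 1 and 1 of 9 IGF axis genes. Of metabolic lists, eicosanoid genes gave 2 higher and 1 lower of 15, amino acid genes 0 and 2 of 23, cholesterol synthesis 0 and 1 of 10, and iron, haem and copper genes 1 and 1 of 21. Mt3, a metallothionein, was the higher one of the last at 966 against 330 (2.93-fold).

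Several lists gave no or few calls. Of 19 cytosolic ribosomal proteins 0 passed 2-fold, with a median of 0.05. Chaperones gave 0 higher and 1 lower of 30, and apoptosis genes 0 higher and 3 lower of 22, of which Gadd45a, a stress gene, recurred at 74.1 against 154 (2.08-fold lower). Genes known to respond to glucocorticoid or vitamin D, which every dish received, gave 1 higher and 3 lower of 20. Redox and glutathione genes gave 2 higher and 4 lower of 35 with a median of 0.01. Of 39 genes of ubiquitin ligases and the proteasome 3 were higher and 0 lower, and one of the 3, Rnf19b, a ring-finger ubiquitin ligase, was large at 544 against 59.8 (9.10-fold), with 331 in bone marrow against 94.9 and 87.4.

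Large ratios were also found outside the lists, and part of them did not recur. Fam102a read 330 against 7.3, at least 16.5-fold, but 25.3 in bone marrow against 32.9 and 43.6, so only 1 of the 5 arrays was high. Tradd, an adaptor of the TNF receptor, read 184 against 19.6, at least 9.22-fold, but 120 to 171 in the other 3 arrays, so here only Fos-/- spleen was low. Gm1673 on the lower side read 40.7 against 276 (6.78-fold), and 253 to 361 elsewhere. Among those that did recur, Slc44a1, a choline transporter, read 133 against 21.2 (6.26-fold) and 162 in bone marrow against 22.8 and 27.7. Scin, an actin-severing protein, read 134 against a value under the floor, at least 6.72-fold, and 55.9 in bone marrow against values under the floor with both viruses. On the lower side, Creg1, a secreted glycoprotein of lysosomes, read 50.5 against 182 (3.59-fold), and 57.0 in bone marrow against 183 and 261. St3gal5, which makes the ganglioside GM3, read 89.4 against 284 (3.18-fold) and 94.8 against 232 and 271, and Csrp2, a LIM-domain protein, 47.9 against 184 (3.85-fold) and 50.4 against 124 and 129. For these lower genes both Fos+/+ arrays lay below all 3 Fos-/- arrays.

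The genes just inside and just outside the 2-fold limit differ little. Spi1 at 2.03-fold counts as higher, while Adgre1 at 1.96-fold lower and Cd68, a lysosomal protein of macrophages at 1819 against 1097 (1.66-fold higher), do not count. Cd68 ran opposite to Adgre1, although both are used as macrophage markers. Tagln2, Antxr2 and Cks2, named after their values were seen, are further recurring genes of moderate size. Tagln2, an actin-binding protein, read 1107 against 471 (2.35-fold), Antxr2, a receptor for matrix proteins, 383 against 152 (2.52-fold), and Cks2, a partner of cyclin-dependent kinases, 111 against 38.1 (2.91-fold). On the lower side Cd300c2, a receptor of myeloid cells also named after its values were seen, read 234 against 546 (2.34-fold) and 252 against 500 and 530.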

How the data were processed

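The authors deposited 1 linear intensity per probe set and array. Its software and upstream steps were not given in the sources used here. These deposited intensities had a mean of 100 in both spleen arrays when the lowest and highest 2% were left out, and 22.0 and 22.3% of them were at or below 0, so they were used as deposited. Gene symbols came from the platform annotation. Of 10833 probe sets, 10817 matched a RefSeq gene identifier (GRCm38.p6) and 0 symbols differed. Control probe sets (66) and those with several symbols (396) or none (1193) were left out of the counts. There was 1 array a group, so no test was run, and the number of arrays limits the precision.

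Members and the 55 gene lists were chosen with earlier results of these data known. The genes named are Fos, the list members, the 40 largest ratios each way with the brighter array at 80 or more, the 30 brightest each way at the floor in the dimmer array, and genes whose probe sets disagreed. Any other is said to be named after its values were seen, except in accounts of probe sets of 1 gene and of cell type checks. Ratios were computed with Python 3.11.15, numpy 2.4.6 and pandas 2.3.3, and lowess with statsmodels 0.14.6. The counting was tested on simulated data.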

Additional observations from a re-analysis of the deposited data

Results flagged for a closer look

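Across the 2 pairs that share no array, 43 genes were 2-fold or more apart in opposite directions, 14 higher in the first pair and lower in the second and 29 the other way. Among them only Hyal2, a hyaluronidase, and Rnps1, a splicing factor named after its values were seen, reached 160 in the brighter array of the first pair. Hyal2 read 195 against 59.2 in the spleen pair and 3.3 in bone marrow against 45.8 with GFP virus. The difference between the pairs was not tested. Probe sets without exactly 1 gene symbol, which the counts leave out, held 36 higher (5.86%) and 28 lower (4.56%) of 614 that were bright enough, so a signal of similar share lies in sequences not named here.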

How the results depend on the processing

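The counts of 409 probe sets higher and 385 lower depend most on the floor and the fold. A floor of 40 gave 252 and 235, a floor of 80 gave 130 and 103, and a fold of 3 gave 136 and 101. A pseudocount of 20 in place of the floor left 217 lower and 287 higher, the latter within 1.5 times. Quantile normalization, removal of a lowess trend, a floor of 10, probe sets without a suffix and the mean of a gene's probe sets kept both counts within 1.5 times. Of 150 named genes called higher, 67 kept the call under all 8 alternatives and 124 under those apart from the floors, and of 137 called lower 34 and 87. Lowess took the call from 0 higher and 10 lower genes. Over all lists and settings, 401 medians moved by less than 0.25, 6 moved by more and 1 turned. The 6 were osteoclast 2.40, replication 0.47 and channel genes 0.37 at a floor of 80, AP-1 subunits 0.51 at a floor of 40, and class I 0.34 and endothelial and smooth muscle genes -0.009 without suffixed probe sets. The median of the mast cell and basophil list turned from -0.57 to 0.016 at a floor of 10. Erdr1 turned to -0.38 and Man2b1 to 0.003 (log2) with the mean of their probe sets, which disagree, and Zap70 to 0.084 without suffixed probe sets. The cause was not tested. No paired analysis was possible because each group had 1 array and the labels give no replicate numbers.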

Other observations

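Man2b1, a lysosomal mannosidase, read 380 against 914 (2.40-fold lower in Fos+/+) with its brighter probe set and 48.3 against a value under the floor with the other. The brighter one recurred, at 438 in bone marrow against 860 and 1155 with the viruses. Erdr1 read 1086 against 533 with its brighter probe set and a value under the floor against 69.3 with the other.

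Of 1501 pairs of genes next to each other in the genome with both read, both members passed 2-fold in 26, 14 in the same direction and 12 in opposite directions. With 6.5% of genes higher and 6.4% lower among all read, this count is not read as a result. Apoc1 and Apoe were both lower and Ncf4 and Csf2rb2 both higher, while Ccl9 and Ccl6 were opposite. Csf2rb2, a receptor subunit related to that for interleukin 3, read 89.2 against 32.1 (2.78-fold higher) and recurred.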
